A study of Drosophila melanogaster with 10 samples.

Results

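The innexins are the proteins that form gap junctions in insects, the clustered channels through which ions and small molecules pass directly between the cytoplasm of touching cells. They span the membrane, assemble into half-channels and dock with half-channels of the neighbouring cell, and a junction can be built from one innexin or from several. In Drosophila, epithelia and glia are coupled mainly by ogre (also called innexin 1), Inx2 and Inx3, electrical synapses depend on shakB, and the contact of germ cells with their supporting cells depends on zpg. The 8 innexin genes ogre, Inx2, Inx3, Inx5, Inx6, Inx7, shakB and zpg were taken from the expression tables by their FlyBase symbols, out of 13986 genes listed. The family was selected on the measured values of its member Inx7, which was lower in every driven genotype than in control, so those Inx7 values are given as a description with no test.

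Oenocytes, the hepatocyte-like cells under the abdominal cuticle that make hydrocarbons, were dissected from 7-day-old adult males, and poly(A) RNA was sequenced from 5 genotypes with 2 libraries each. Flies were raised at 25 °C until eclosion and then held at 29 °C for 7 days. All genotypes carried the oenocyte driver prom-E800-Gal4. Control added UAS-mCD8-GFP, 3 genotypes added a hairpin against fruitless (fru), from stock VDRC330035, BDSC#31593 or VDRC105005, and the last added UAS-FruCOMB, a construct for overexpression of the fru isoform that both sexes share. They are called control, fru-RNAi VDRC330035, fru-RNAi BDSC#31593, fru-RNAi VDRC105005 and FruCOMB OE, and the last 4 are the driven genotypes. As the labels give mCD8-GFP to control alone and each hairpin comes from 1 stock, the effect of fru and that of the transgene or stock background cannot be told apart. The authors call the 2 libraries of a genotype biological replicates. The labels do not say whether they came from separate flies, so p values measure the spread between these libraries, which may be technical.

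The libraries held between 23415354 and 46840820 counts. The targeted gene fru stood at 2.26 and 2.34 TMM-rescaled TPM (TPM is the deposited share of transcripts per gene length, here multiplied by a factor for each library) in control and at 1.60 and 1.62 in fru-RNAi VDRC105005. The libraries labelled fru-RNAi VDRC330035 (3.66 and 3.55) and fru-RNAi BDSC#31593 (7.29 and 7.32) held more fru than control, against the direction of their labels, and reached 43.5 and 43.3 in FruCOMB OE. The tables do not separate reads of a transgene from those of the gene itself, and the size of the excess depends on the measure, since fru in fru-RNAi BDSC#31593 was 3.18-fold above control in TMM-rescaled TPM and 2.04-fold in counts. The 7 oenocyte markers were detected in every library, and their sum was 58870 and 59230 in control, 13760 in both libraries of fru-RNAi VDRC330035 and between 44130 and 87100 in the other driven genotypes. Cyp4g1 alone gave 91.5% of that sum in control and 65.1% in fru-RNAi VDRC330035, and the other 6 markers summed to a mean of 5014 in control, 4804 in fru-RNAi VDRC330035 and between 3870 and 6760 elsewhere. The sum of 7 muscle markers was 979 and 983 in control, 2030 and 2019 in fru-RNAi VDRC330035, 1862 and 1822 in FruCOMB OE and between 1159 and 1282 in the other fru-RNAi lines. The sum of 10 gut markers was 83.5 and 87.0 in control and 702 and 550 in the second libraries of fru-RNAi BDSC#31593 and fru-RNAi VDRC105005, beside 114 and 97.6 in their first libraries. The 6 accessory gland markers summed to 35.8 and 34.8 in control, to between 230 and 300 in fru-RNAi VDRC330035 and BDSC#31593, and to 2.47 and 1.61 in FruCOMB OE. The 5 fat body markers summed to 976 and 975 in control and to less in every driven library, between 243 and 586. Lsd-1, the most abundant in control, fell from a group mean of 841 to between 106 and 332. The others did not all fall. Lsp2 was 25.5 in control, 7.24 in fru-RNAi VDRC330035 and between 34.4 and 265 elsewhere. In control apolpp was 96.7, Apoltp 9.32 and Fbp1 3.19, beside 76.4 to 147, 9.08 to 16.9 and 1.12 to 3.2 in the driven genotypes. The part of these other tissues in the innexin values was not tested, and in bulk RNA fewer cells of a type and less RNA per cell cannot be told apart.

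Inx7, an innexin known from neurons of the memory circuits of the fly brain, was a main innexin transcript of control oenocytes and a minor one in every driven genotype. It stood at 11.6 and 11.8 TMM-rescaled TPM in control, from 431 and 547 counts. It was 0.863 and 0.848 in fru-RNAi VDRC330035, from 46 and 63 counts. In fru-RNAi BDSC#31593 it was 1.87 and 2.42, from 71 counts in each library. Both lines were far below control and did not overlap with each other. In fru-RNAi VDRC105005 it was 1.57 and 1.91, and in FruCOMB OE 2.10 and 1.74. The 8 driven libraries thus lay between 0.848 and 2.42, without overlap with control, and the 3 genotypes other than fru-RNAi VDRC330035 overlapped one another.

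On average Inx7 kept 7.3% of its control level in fru-RNAi VDRC330035, 18.3% in fru-RNAi BDSC#31593, 14.8% in fru-RNAi VDRC105005 and 16.4% in FruCOMB OE. The log2 fold changes of its counts were -3.76, -2.46, -2.78 and -2.75 in the same order. Inx7 was thus lower in the hairpin lines and in the overexpression line alike. In the gut-marker-rich second libraries of fru-RNAi BDSC#31593 and VDRC105005, Inx7 was the higher of the pair, and without them the log2 fold changes were -2.64 and -2.91.

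**Figure D1:**
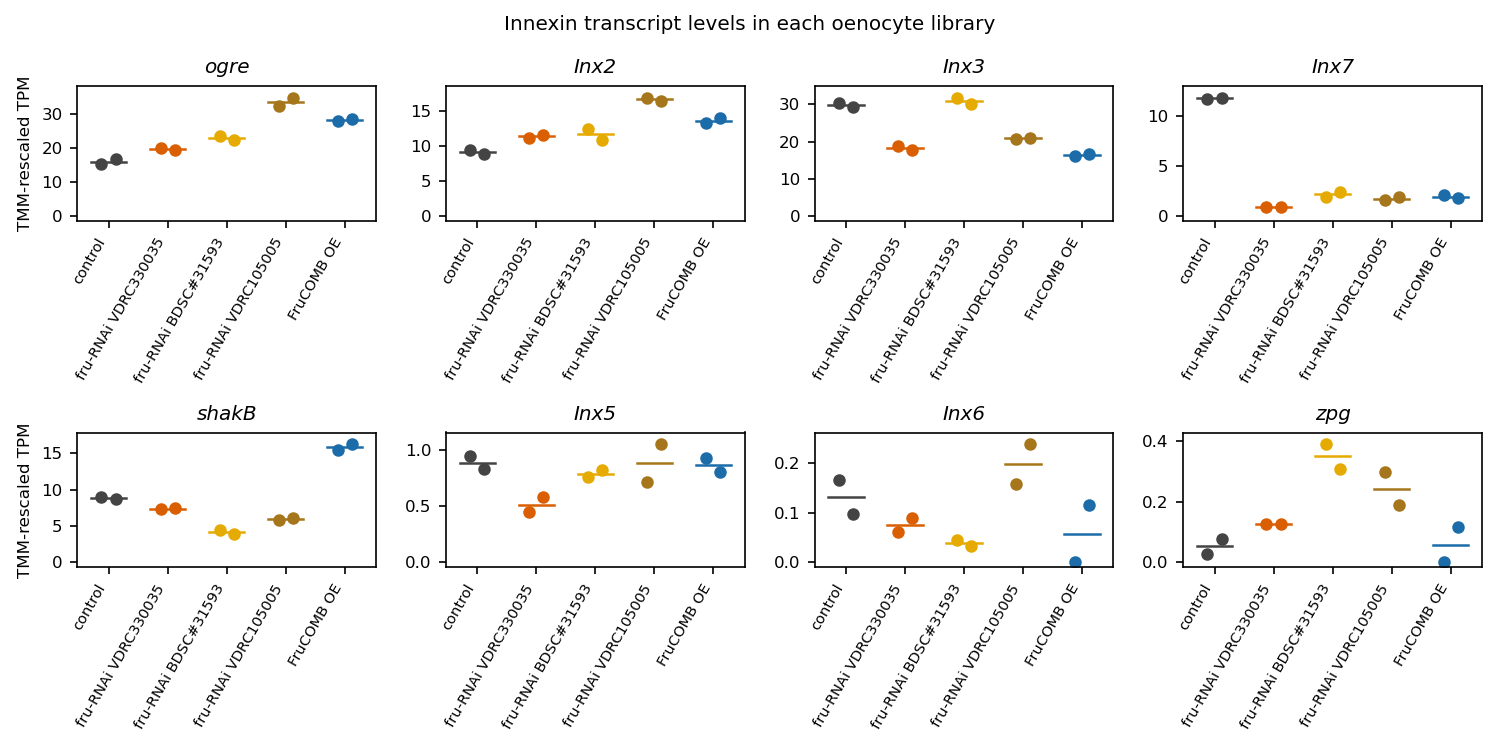
Levels of the 8 innexin genes in TMM-rescaled TPM (vertical axes, one scale per gene) in the 5 genotypes, with 1 point per library and a line at the mean of the 2 libraries. Inx7 sits at 11.6 and 11.8 in control and at or under 2.42 in all other libraries, while ogre and Inx2 sit above control and shakB is highest in FruCOMB OE.

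The driven genotypes were compared with one another for Inx7, since the choice of the family used its differences from control and not those between driven genotypes. The same driven libraries entered that choice, so these tests are not wholly free of it. fru-RNAi VDRC330035 had the lowest level. It was 2.46-fold lower than fru-RNAi BDSC#31593 (log2 fold change -1.30, SE 0.21, edgeR quasi-likelihood test with Benjamini-Hochberg adjustment over all genes, adjusted p = 0.0017). It was 2-fold lower than fru-RNAi VDRC105005 (-1, SE 0.20, adjusted p = 0.0037) and 2.08-fold lower than FruCOMB OE (-1.06, SE 0.21, adjusted p = 0.000575). Among the other 3 genotypes no pair passed the test. The difference of fru-RNAi BDSC#31593 from VDRC105005 was 0.31, with an interval of 1.96 SE on each side from -0.11 to 0.74 (adjusted p = 0.321). That of fru-RNAi BDSC#31593 from FruCOMB OE was 0.23, from -0.19 to 0.65 (adjusted p = 0.39), and that of fru-RNAi VDRC105005 from FruCOMB OE was -0.11, from -0.52 to 0.30 (adjusted p = 0.672). These intervals leave room for differences of a size the libraries could not resolve.

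The innexins of epithelia and glia, ogre and Inx2, went the other way. ogre, needed for the growth of the optic ganglia and for glia, was called higher than control in all 4 driven genotypes. Its control libraries stood at 15.2 and 16.6 TMM-rescaled TPM. Those of fru-RNAi VDRC330035 stood at 20.03 and 19.3, and those of fru-RNAi BDSC#31593 at 23.4 and 22.3. The highest values were those of fru-RNAi VDRC105005, 32.2 and 34.6, followed by FruCOMB OE at 28.0 and 28.5. No genotype overlapped with another. Of 4 glia markers, repo and alrm had higher group means in the 4 driven genotypes (0.521 to 0.748 and 0.0985 to 0.106) than in control (0.316 and 0.063), and wrapper and moody had lower ones. moody made up nearly all of their sum, which was 100 and 106 in control and between 11.6 and 40.2 in the driven libraries. The sum of 4 trachea markers was 12.2 and 12.9 in control and between 15.6 and 21.0 in the driven libraries. That of 5 Malpighian tubule markers was 4.11 and 4.66 in control and between 6.84 and 12.0 in the driven libraries. Not each marker rose: CapaR fell from 0.169 to between 0.072 and 0.134, and btl was 0.446 in FruCOMB OE beside 0.485 in control. The part of glia and of these tissues in the ogre and Inx2 values was not tested. The log2 fold change against control rose from 0.31 (SE 0.052, edgeR adjusted p = 0.000137) in fru-RNAi VDRC330035 to 0.52 (SE 0.057, adjusted p = 0.000157) in fru-RNAi BDSC#31593, 0.70 (SE 0.050, adjusted p = 1.06e-07) in FruCOMB OE and 1.04 (SE 0.058, adjusted p = 1.02e-06) in fru-RNAi VDRC105005.

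All 6 pairs of driven genotypes differed for ogre in the same order. The smallest step was that of fru-RNAi VDRC330035 below fru-RNAi BDSC#31593 (-0.20, SE 0.045, edgeR adjusted p = 0.00866). Over 12 alternative settings its adjusted p ran from 5.54e-05 to 0.081. It passed 0.05 without the second library of fru-RNAi VDRC330035, and with library size alone as the scaling the sign turned (0.18), where the median of all genes in that comparison was 0.389. The largest step was that of fru-RNAi VDRC330035 below fru-RNAi VDRC105005 (-0.74, SE 0.047, adjusted p = 4.07e-06). The step of fru-RNAi VDRC105005 above FruCOMB OE (0.27, SE 0.046, edgeR adjusted p = 0.00123) was not called with library size alone. Its value was then 0.08, beside a median of -0.217 over all genes.

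Inx2, which couples epithelial cells and can share channels with ogre or Inx3, was also called higher than control in the 4 driven genotypes. It was 9.38 and 8.89 in control, 11.1 and 11.7 in fru-RNAi VDRC330035, and 12.5 and 10.9 in fru-RNAi BDSC#31593. It reached 16.9 and 16.4 in fru-RNAi VDRC105005 and 13.3 and 14.0 in FruCOMB OE. All driven libraries lay above both control libraries, and fru-RNAi VDRC330035 and BDSC#31593 overlapped. The log2 fold changes were 0.30 (SE 0.056), 0.33 (SE 0.079), 0.79 (SE 0.061) and 0.48 (SE 0.059) in that order, with edgeR adjusted p of 0.000402, 0.00906, 9.48e-06 and 1.67e-05. The rise in fru-RNAi BDSC#31593 was the weakest of these. Its adjusted p ran from 0.000118 to 0.0986 over 12 settings and passed 0.05 with library size alone and without the second control library.

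The order of Inx2 across the driven genotypes followed that of ogre, with 2 neighbouring pairs that did not pass the test. fru-RNAi VDRC330035 and BDSC#31593 differed by -0.03, from -0.17 to 0.10 (edgeR adjusted p = 0.72), and with library size alone by 0.34, beside the median of 0.389 over all genes. fru-RNAi BDSC#31593 and FruCOMB OE differed by -0.19, from -0.34 to -0.05 (edgeR adjusted p = 0.0623). This difference was called without the low-count filter (-0.20) and with library size alone (-0.48, beside a median of -0.295 over all genes). It was -0.30 without the first library of fru-RNAi BDSC#31593. fru-RNAi VDRC105005 was 1.18-fold above FruCOMB OE (adjusted p = 0.00521), a call that was lost without the first library of FruCOMB OE and with library size alone. ogre stood at between 1.63 and 2.11 times the level of Inx2 in all 10 libraries.

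Inx3, the partner of Inx2 in epithelia, was the most abundant innexin in control and was lower in 3 of the 4 driven genotypes. It was 30.3 and 29.3 TMM-rescaled TPM in control. The libraries of fru-RNAi BDSC#31593, at 31.8 and 30.2, overlapped with control. Those of fru-RNAi VDRC330035 were 18.9 and 17.9, those of fru-RNAi VDRC105005 20.8 and 20.9, and those of FruCOMB OE 16.2 and 16.8. These 3 genotypes lay below control without overlap. The log2 fold changes were -0.69 in fru-RNAi VDRC330035 (SE 0.044, edgeR adjusted p = 6.74e-09), -0.54 in fru-RNAi VDRC105005 (SE 0.044, adjusted p = 1.28e-05) and -0.98 in FruCOMB OE (SE 0.045, adjusted p = 1.36e-09). In fru-RNAi BDSC#31593 it was 0.05, from -0.03 to 0.14 (adjusted p = 0.348).

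The difference between the hairpin lines for Inx3 was itself past the threshold. fru-RNAi VDRC330035 was 1.66-fold below fru-RNAi BDSC#31593 (-0.73, SE 0.047, edgeR adjusted p = 1.06e-05) and fru-RNAi BDSC#31593 was 1.5-fold above fru-RNAi VDRC105005 (0.58, SE 0.042, adjusted p = 0.000129). fru-RNAi VDRC330035 stood a little below fru-RNAi VDRC105005 (-0.16, SE 0.050, adjusted p = 0.0273). That last call was lost with DESeq2 and without the second library of fru-RNAi VDRC330035, with adjusted p from 0.00926 to 0.192 over 12 settings, and with library size alone the value was 0.16 beside a median of 0.329 over all genes. Inx3 stood at 3.24 and 3.30 times the level of Inx2 in control and at 1.2 to 2.78 times in the driven libraries.

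shakB, the innexin of electrical synapses in the giant fiber system, separated the overexpression line from the hairpin lines. It was 9.05 and 8.73 TMM-rescaled TPM in control, 7.36 and 7.43 in fru-RNAi VDRC330035 and 4.41 and 3.85 in fru-RNAi BDSC#31593. In fru-RNAi VDRC105005 it was 5.86 and 6.09, and in FruCOMB OE 15.4 and 16.2. All hairpin libraries lay below control and both FruCOMB OE libraries above it. Against control, shakB rose in FruCOMB OE (0.82, SE 0.039, edgeR adjusted p = 2.05e-09) and fell in fru-RNAi BDSC#31593 (-1.02, SE 0.055, adjusted p = 2.3e-06) and fru-RNAi VDRC105005 (-0.45, SE 0.055, adjusted p = 0.00017).

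The fall of shakB in fru-RNAi VDRC330035 was small (-0.16, SE 0.046, edgeR adjusted p = 0.00973). Its adjusted p ran from 0.00537 to 0.296 over 12 settings, and the call was lost with DESeq2, without the first library of fru-RNAi VDRC330035 and with library size alone, where the value was 0.06 beside a median of 0.205 over all genes. All 6 pairs of driven genotypes differed for shakB. The widest gap was that of fru-RNAi BDSC#31593 below FruCOMB OE, 3.71-fold (-1.89, SE 0.043, adjusted p = 1.09e-07). fru-RNAi VDRC105005 was 2.53-fold below FruCOMB OE and fru-RNAi VDRC330035 2.02-fold below it. Neuron markers were low throughout. Their sum over 5 genes was 3.40 and 3.23 in control and 6.44 and 6.02 in fru-RNAi VDRC330035. It was between 4.89 and 5.35 in the other fru-RNAi lines, and 6.63 and 7.07 in FruCOMB OE. The part of neurons in the shakB values was not tested.

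The remaining members, Inx5, Inx6 and zpg, were near the detection limit. Inx5 gave 27 to 48 counts per library, or 0.445 to 1.05 TMM-rescaled TPM. Against control it was called lower in fru-RNAi VDRC330035 and in no other genotype, at 0.445 and 0.577 beside 0.941 and 0.825 in control (-0.75, SE 0.27, edgeR adjusted p = 0.0286). This call was lost with DESeq2, with library size alone and without the first control library or either library of fru-RNAi VDRC330035, and its adjusted p ran from 0.02 to 0.168 over 12 settings. In the other 3 genotypes the Inx5 difference from control was between -0.17 and -0.04, with adjusted p of 0.614 or more.

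Inx6, which acts with Inx7 in the memory circuits of the fly brain, gave 0 to 10 counts per library and passed the filter on low counts in no comparison. Its ratio to control, from the summed counts of both libraries, was 0.276 in fru-RNAi BDSC#31593 (3 counts beside 12, 95% counting interval 0.05 to 1.02) and 1.45 in fru-RNAi VDRC105005 (18 counts beside 12, 0.662 to 3.31). zpg, the germline innexin, gave 1 and 3 counts in control, 6 and 8 in fru-RNAi VDRC330035, 13 and 8 in fru-RNAi BDSC#31593, 11 and 6 in fru-RNAi VDRC105005 and 0 and 5 in FruCOMB OE. The count ratio to control was 5.79 in fru-RNAi BDSC#31593 (1.96 to 23.2), 4.11 in fru-RNAi VDRC105005 (1.34 to 16.8), 2.67 in fru-RNAi VDRC330035 (0.839 to 11.1) and 1.29 in FruCOMB OE (0.277 to 6.48). These intervals cover counting error only. Among the germline markers bam was at 0 in both control libraries, and vas, nanos and aub had group means of 0.527 or less in every genotype. The testis markers dj and Mst87F were well above 0, with group means of 28.1 to 87.5 and 98.9 to 231, beside 46.7 and 188 in control. Both were highest in FruCOMB OE and lowest in fru-RNAi VDRC105005, and their part in the zpg values was not tested.

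zpg passed the low-count filter in 2 comparisons between hairpin lines, both with fru-RNAi BDSC#31593, the line in which it was highest, so its fitted values are given as a description with no test. The log2 fold change was -1.46 (SE 0.49) in fru-RNAi VDRC330035 against BDSC#31593 and 0.55 (SE 0.47) in fru-RNAi BDSC#31593 against VDRC105005.

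**Figure D2:**
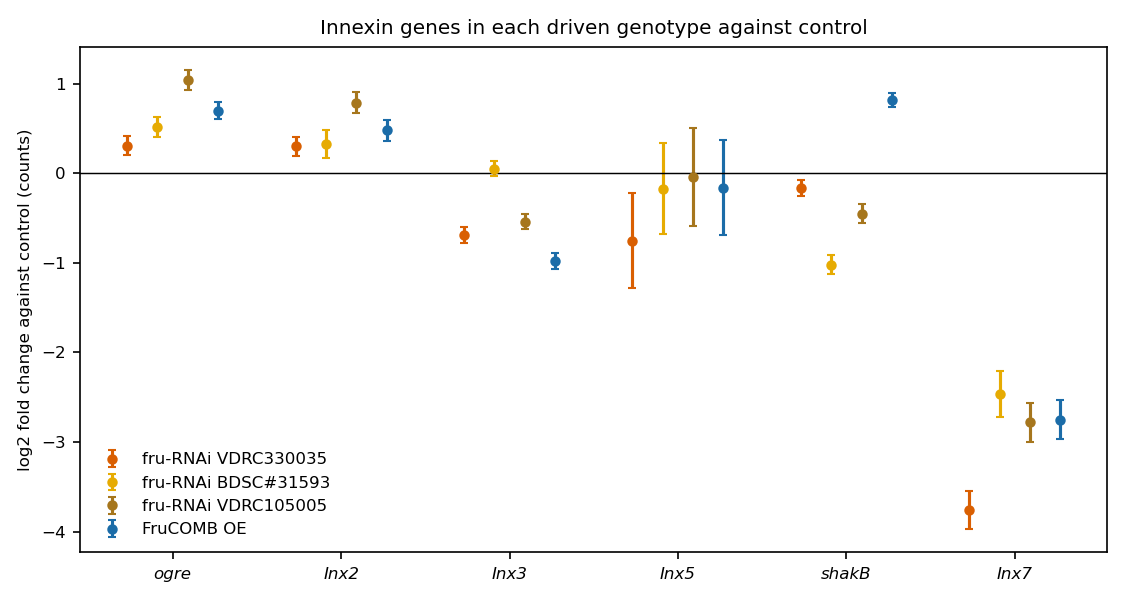
Log2 fold change of the counts of 6 innexin genes against control (vertical axis) in the 4 driven genotypes, with bars of 1.96 SE on each side. The bars of Inx7, whose values chose the family, are not read as a test. ogre and Inx2 lie above 0 in all 4, Inx7 lies between -3.76 and -2.46, and shakB lies at 0.82 in FruCOMB OE and below 0 in the fru-RNAi lines (with library size alone, 0.06 in fru-RNAi VDRC330035).

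Counted over the 7 members other than Inx7, 5 passed the low-count filter in each comparison with control. In fru-RNAi VDRC330035 all of these 5 were called, 2 higher (ogre and Inx2) and 3 lower (Inx3, Inx5 and shakB), where 62.3% of all genes tested were called, 31.7% higher and 30.6% lower. In fru-RNAi BDSC#31593, 2 were higher and 1 (shakB) lower, beside 49.9% of all genes, 26.0% higher and 23.9% lower. In fru-RNAi VDRC105005, 2 were higher and 2 lower, beside 52.7% of all genes, 26.0% higher and 26.7% lower. In FruCOMB OE 3 were higher and 1 (Inx3) lower, beside 65.0% of all genes, 31.4% higher and 33.7% lower. With so large a share of all genes called, these counts are not read as a result about the family. DESeq2 and library size alone each called 3 in fru-RNAi VDRC330035, with 2 higher and 1 lower, beside 5683 and 7551 of all 11729 genes. The median log2 fold change of the 5 was -0.16, 0.05, -0.04 and 0.48 in the order above, and that of all genes between -0.017 and 0.036. The 4 comparisons share their control libraries.

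Between driven genotypes all 8 members count, of which 6 or 7 passed the filter. Of these, 5 were called between fru-RNAi VDRC330035 and BDSC#31593 (51.7% of all genes), or 4 apart from zpg, which had passed the filter through the group where it was high, 5 between fru-RNAi VDRC330035 and VDRC105005 (56.6%), and 5 between fru-RNAi VDRC330035 and FruCOMB OE (67.9%). Between fru-RNAi BDSC#31593 and VDRC105005 4 were called (36.3%), between fru-RNAi BDSC#31593 and FruCOMB OE 3 (59.8%), and between fru-RNAi VDRC105005 and FruCOMB OE 4 (61.9%). When single replicates were left out, ogre in fru-RNAi VDRC330035 against BDSC#31593 ran from -0.25 to -0.17 and Inx2 from -0.15 to 0.07. Library size alone left 2 calls (Inx3 and shakB) between fru-RNAi VDRC105005 and FruCOMB OE, beside 7564 of all 11624 genes.

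**Figure D3:**
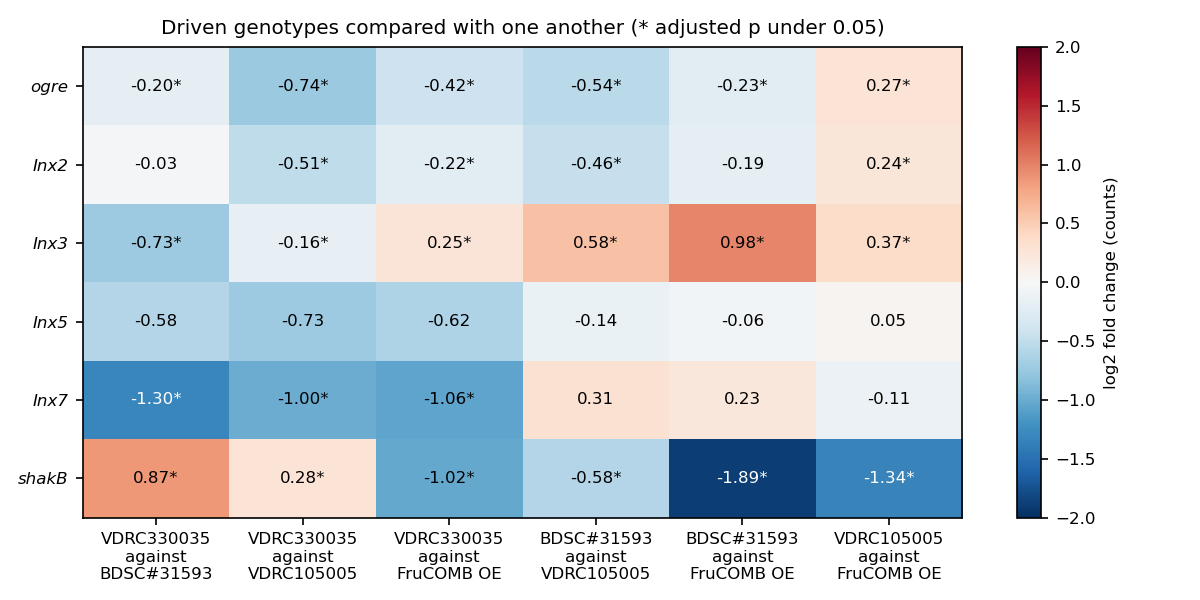
Log2 fold changes of 6 innexin genes (rows) in the 6 comparisons between driven genotypes (columns, the first named genotype against the second), with an asterisk where the edgeR adjusted p is under 0.05. shakB gives the widest gaps, up to -1.89, and Inx7 passes the test only where fru-RNAi VDRC330035 is one of the pair.

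Each genotype had its own make-up of the innexin transcript pool. The summed level of the 8 genes was 76.8 and 76.3 TMM-rescaled TPM in control, 75.1 and 70.8 in fru-RNAi BDSC#31593, 78.5 and 81.4 in fru-RNAi VDRC105005 and 75.9 and 78.2 in FruCOMB OE. fru-RNAi VDRC330035 was lowest, at 58.9 and 57.9, without overlap with any other genotype on this scale. On the deposited TPM, without the factor per library, its sums of 66.2 and 64.2 overlapped with those of fru-RNAi BDSC#31593, 67.5 and 64.1, and control stood at 79.2 and 78.7. Inx7 made up 15.2% and 15.4% of the pool in control and 1.47% to 3.41% in the driven libraries. ogre made up 19.9% and 21.7% in control and 31.1% to 42.5% in the driven libraries.

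The leading innexin differed as well. In control the order was Inx3 (39.0% ± 0.78, SD, n = 2), ogre (20.8% ± 1.3), Inx7 (15.3% ± 0.14), then Inx2 (11.9% ± 0.42) and shakB (11.6% ± 0.28), of which the last 2 overlapped. Inx3 also led in fru-RNAi BDSC#31593 (42.5% ± 0.28). ogre led in fru-RNAi VDRC330035 (33.6% ± 0.49), in fru-RNAi VDRC105005 (41.8% ± 1.1) and in FruCOMB OE (36.6% ± 0.28). shakB took 20.5% ± 0.28 of the pool in FruCOMB OE, close to Inx3 at 21.4%, and 5.66% ± 0.30 in fru-RNAi BDSC#31593. Inx7 was the least abundant of these 5 genes in each driven genotype.

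**Figure D4:**
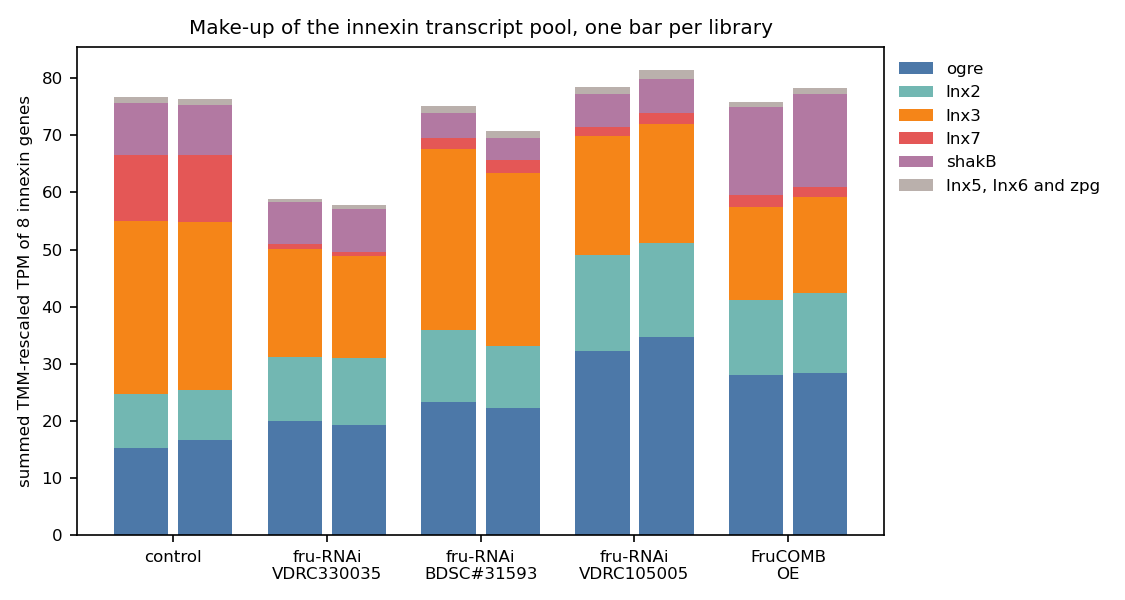
Summed TMM-rescaled TPM of the 8 innexin genes (vertical axis) in each library, with 1 bar per library, stacked by gene. The Inx7 segment shrinks from 15.2% and 15.4% of the bar in control to at most 3.41% elsewhere, and the ogre segment grows to 31.1% or more.

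Inx7 lies in a cluster with ogre and Inx2 on the X chromosome (dme6 genome, BDGP6 annotation). The 1 annotated transcript of Inx7 runs on the minus strand from X:6991612 to 6993612. ogre lies on the same strand from X:6973620 to 6991318, 293 bases from Inx7, and Inx2 on the plus strand from X:6998672 to 7004151, 5059 bases away. The innexin whose level was far below control in every driven genotype thus sits between the 2 innexins that were above it. On the TMM-rescaled scale ogre stood at 1.31 and 1.41 times the level of Inx7 in control and at 9.23 to 23.2 times in the driven libraries. No annotated gene overlaps Inx7. bou, which codes for a protein of the septate junction, lies within ogre on the opposite strand without sharing an exon with it. An annotated lncRNA, CR44084, shares an exon stretch with ogre and is not a row of the tables, so with counts that may not use strand the 2 cannot be told apart.

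None of the 3 measured neighbours of the cluster was called lower in all 4 driven genotypes. bou was called higher in fru-RNAi VDRC105005 (0.65, SE 0.11, edgeR adjusted p = 0.00118) and FruCOMB OE (0.48, SE 0.13, adjusted p = 0.00505), the 2 genotypes with the highest ogre. In fru-RNAi VDRC330035 and BDSC#31593 it was 0.06 and 0.16, not called. CG3040, on the far side of ogre, was higher in fru-RNAi VDRC330035 (0.38, SE 0.062, adjusted p = 9.93e-05) and between -0.14 and 0.03 elsewhere. cm (carmine), which codes for a subunit of an adaptor complex of vesicle transport, lies beyond Inx2. It fell in fru-RNAi VDRC330035 (-0.23), fru-RNAi BDSC#31593 (-0.24) and FruCOMB OE (-0.81, SE 0.082, adjusted p = 2.48e-06) and was -0.03 in fru-RNAi VDRC105005.

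**Figure D5:**
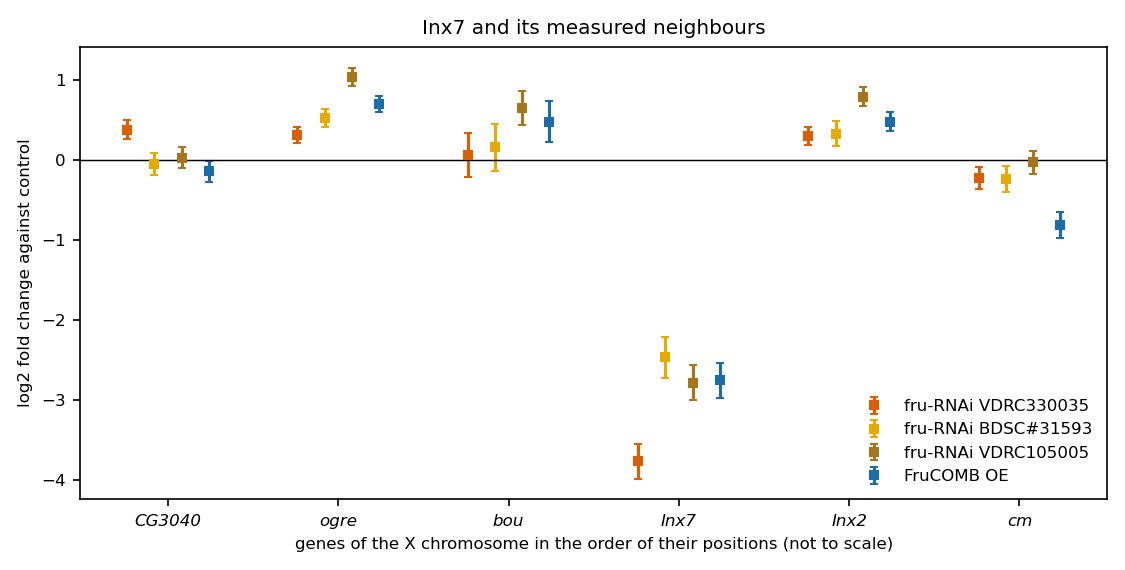
Log2 fold change against control (vertical axis) of Inx7, ogre, Inx2 and the measured genes next to them on the X chromosome, in map order and not to scale, with bars of 1.96 SE on each side. The bars of Inx7, whose values chose the family, are not read as a test. Inx7 lies at or below -2.46, while its neighbours lie between -0.81 and 1.04.

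The other members lie apart. shakB spans X:20761071 to 20927050 with 8 annotated transcripts, and 6 annotated genes lie within its span without sharing an exon. Inx5 (X:19168777 to 19170883) and Inx6 (X:20267821 to 20269769) are single-transcript genes, and Inx5 shares exon sequence with the annotated gene mir-4959. Inx3 lies on chromosome 3R (28853606 to 28859497) inside spg without a shared exon, and zpg on chromosome 3L (6604366 to 6606032), overlapping Rexo5 outside its exons.

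The genes whose profile over the 10 libraries lay closest to that of Inx7 were found by the root mean square difference of log2(value + 1), each gene centred on its own mean, among 12061 genes. They were CG13437 (0.263), bw (0.272), Poxm (0.331), CG3829 (0.332) and Mco4 (0.342). bw codes for a transporter subunit of eye pigment precursors, Poxm for a paired-box transcription factor and Mco4 for a multicopper oxidase. CG13437 averaged 20.8 TMM-rescaled TPM in control, 1.28 in fru-RNAi VDRC330035, 4.12 in fru-RNAi BDSC#31593, 2.48 in fru-RNAi VDRC105005 and 2.20 in FruCOMB OE. As these genes were picked for their likeness to Inx7, shared low levels are not a separate result. bw went from 4.57 in control to between 0.184 and 0.341. CG3829 went from 206 to between 46.0 and 66.3, at which fru-RNAi VDRC105005 was highest. Mco4 lies on the X chromosome and the other 4 on 2R or 3R.

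Gap junctions share the lateral membrane with septate and adherens junctions, and calcium is among the ions and messengers that pass them, so 3 gene lists of those systems were described beside the innexins. Of 29 septate junction genes, all tested, 14 were higher and 4 lower in fru-RNAi VDRC330035, 12 and 4 in fru-RNAi BDSC#31593, 9 and 8 in fru-RNAi VDRC105005 and 10 and 10 in FruCOMB OE. Of all genes tested 31.7% were higher and 30.6% lower, 26.0% and 23.9%, 26.0% and 26.7%, and 31.4% and 33.7% in the same order. Their median log2 fold changes were 0.18, 0.18, 0.04 and -0.01, beside -0.009, -0.017, -0.008 and 0.036 for all genes. With library size alone the median of all genes moved to 0.205, -0.181, -0.099 and 0.209. Of 11729, 11464, 11472 and 11601 genes tested, this scaling called 5503 higher and 2048 lower, 2089 and 4495, 2371 and 3861, and 4882 and 3096. The septate genes then split 22 higher and 4 lower, 7 and 6, 7 and 10, and 14 and 8. The 3 most abundant members are subunits of the sodium pump, which the septate junction needs. nrv2, a beta subunit, was 458 and 465 TMM-rescaled TPM in control and fell in every driven genotype, by 1.61 on the log2 scale in fru-RNAi VDRC330035, by 0.18 in fru-RNAi BDSC#31593, by 0.85 in fru-RNAi VDRC105005 and by 2.42 in FruCOMB OE (edgeR adjusted p of 4.15e-05 or less). nrv1, another beta subunit, fell by 0.28 to 0.82. The alpha subunit gene Atpalpha rose in fru-RNAi BDSC#31593 (0.86, SE 0.017, adjusted p = 9.78e-09) and fru-RNAi VDRC105005 (0.10), fell in FruCOMB OE (-0.14, but 0.04 with library size alone) and was -0.03 in fru-RNAi VDRC330035.

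Of 16 genes of adherens junctions and cell polarity, 9 were higher and 5 lower in fru-RNAi VDRC330035, 7 and 5 in fru-RNAi BDSC#31593, 4 and 4 in fru-RNAi VDRC105005 and 6 and 8 in FruCOMB OE, with medians of 0.21, 0.03, 0.00 and -0.08, beside 62.3%, 49.9%, 52.7% and 65.0% of all genes called and all-gene medians of -0.009, -0.017, -0.008 and 0.036. With library size alone the splits were 11 and 2, 5 and 7, 3 and 6, and 8 and 6. Those of all genes were then 5503 and 2048, 2089 and 4495, 2371 and 3861, and 4882 and 3096. arm, the beta-catenin of the cadherin complex, fell in all 4, by 0.19, 0.31, 0.23 and 0.66, of which the first was 0.02 and not called with library size alone. par-6, a polarity protein, also fell in all 4, by 0.52, 0.60, 0.89 and 1.27. Vinc, the actin linker vinculin, rose in fru-RNAi VDRC330035 (0.19) and fell in FruCOMB OE (-0.47), with -0.10 and 0.09 in the other lines.

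Of 13 genes of calcium release and entry, 9 were higher and 3 lower in fru-RNAi VDRC330035, 8 and 0 in fru-RNAi BDSC#31593, 8 and 2 in fru-RNAi VDRC105005 and 5 and 6 in FruCOMB OE, with medians of 0.24, 0.22, 0.11 and -0.14, beside 31.7% of all genes higher and 30.6% lower, 26.0% and 23.9%, 26.0% and 26.7%, and 31.4% and 33.7%. With library size alone the splits were 10 and 3, 5 and 3, 6 and 3, and 6 and 5. Those of all genes were then 5503 and 2048, 2089 and 4495, 2371 and 3861, and 4882 and 3096. Cam, the calcium sensor calmodulin, rose by 0.24, 0.22, 0.09 and 0.24. SERCA, the calcium pump of the endoplasmic reticulum and of muscle, rose by 0.28, 0.28, 0.41 and 0.09. Letm1, an ion exchanger of the mitochondrial membrane, rose in fru-RNAi VDRC330035 (0.38) and VDRC105005 (0.11), fell in FruCOMB OE (-0.96) and was -0.04 in fru-RNAi BDSC#31593. The summed muscle markers were higher than control in the same 4 genotypes, though not each marker (up was 210 in fru-RNAi VDRC105005 beside 231 in control), and their part in the SERCA values was not tested. Single replicates were also left out, among them the gut-marker-rich second libraries of fru-RNAi BDSC#31593 and VDRC105005. ogre against control then ran from 0.45 to 0.57 in fru-RNAi BDSC#31593 and from 0.99 to 1.1 in fru-RNAi VDRC105005. In the same order Inx2 ran from 0.23 to 0.44 and from 0.73 to 0.84. shakB ran from -1.05 to -0.98 and from -0.48 to -0.41, and Inx3 from 0.02 to 0.09 and from -0.57 to -0.51.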

How the data were processed

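The authors trimmed reads with fastp 0.22.0, mapped them with bowtie2 to dme6, estimated counts with RSEM 1.2.31 and joined the 10 libraries with Trinity scripts. RSEM gave the deposited expected counts, which the authors did not normalize between libraries. The deposited TPM values are scaled within each library. The last deposited table holds a signal, the authors' TMM-rescaled TPM, found to be TPM times a constant between 0.889 and 1.11 per library. Of 13986 gene rows, 13983 had a symbol and a position. The annotation the authors counted on is not given in the sources used here.

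Expected counts were rounded, filtered with filterByExpr (minimum count 10, total 15) and tested in edgeR 4.0.16 (TMM, glmQLFit, glmQLFTest) under R 4.3.3 on the 4 libraries of each of 10 comparisons, with Benjamini-Hochberg adjustment over all genes and calls at adjusted p under 0.05. At 2 against 2 libraries the smallest two-sided p of an exact permutation test is 0.333. Intervals are 1.96 SE, where the SE is the size of the log2 fold change over the square root of the F value of glmQLFTest. They are unadjusted and narrower than the test itself would give, so an interval can leave out 0 without a call. Count ratios have 95% counting intervals. Named genes are all members, fru, the 3 most abundant genes of each junction list, the 5 genes most like Inx7, and genes overlapping or next to ogre, Inx7 and Inx2. Members and lists were chosen with earlier results of these data known. Alternatives used DESeq2 1.42.0, limma 3.58.1 on log2 values plus 1 or 0.1, other scaling and filters, a dispersion from all 10 libraries, a replicate block, and omission of each replicate. Tests were checked on simulated data with 200 genes changed, equally up and down. That is far fewer than were called here, so the check does not cover how the scaling acts on these data. Figures used Python 3.11.15 and matplotlib 3.10.9.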

Additional observations from a re-analysis of the deposited data

Results flagged for a closer look

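Hairpin lines against the same gene differed from one another by over 1.5-fold in 6 member differences (edgeR, adjusted p under 0.05), zpg among them. Without a fold cut, 51.7% of all genes were called between fru-RNAi VDRC330035 and BDSC#31593. The share was 56.6% between VDRC330035 and VDRC105005 and 36.3% between BDSC#31593 and VDRC105005. The share of all genes past the fold cut was not counted, so the 6 are not read as a result about the family. fru-RNAi VDRC330035 was lower than fru-RNAi BDSC#31593 for Inx3 (log2 fold change -0.73), Inx7 (-1.30) and zpg (-1.46), and higher for shakB (0.87). fru-RNAi VDRC330035 was lower than fru-RNAi VDRC105005 for ogre (-0.74) and Inx7 (-1). The value for zpg is a description only. It rests on 6 and 8 counts beside 13 and 8, zpg passed the low-count filter through the group where it was high, and its call was lost in 9 of 11 alternative settings. In these data the lines also differed in fru itself, which was above control in fru-RNAi VDRC330035 and BDSC#31593 and below it in fru-RNAi VDRC105005.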

How the results depend on the processing

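When libraries were scaled by size alone, without TMM, 4 innexin differences changed sign: shakB in fru-RNAi VDRC330035 against control (0.06), ogre (0.18) and Inx2 (0.34) in fru-RNAi VDRC330035 against BDSC#31593, and Inx3 in fru-RNAi VDRC330035 against VDRC105005 (0.16), where the medians of all genes were 0.205, 0.389, 0.389 and 0.329. Over all named and list genes 30 called differences changed sign this way, among them arm and Atpalpha as given above. Of 11729 genes, 7308 were called in fru-RNAi VDRC330035 against control, 5683 with DESeq2 and 7551 with library size alone. In fru-RNAi BDSC#31593 against FruCOMB OE 6914 of 11563 were called, and 7013 of 13626 without the low-count filter. In fru-RNAi VDRC105005 against FruCOMB OE the calls went from 7199 to 7564 with library size alone. The innexins called in fru-RNAi VDRC330035 against control went from 5 to 3 with DESeq2 and to 3 with library size alone, in fru-RNAi BDSC#31593 against FruCOMB OE from 3 to 5 without the low-count filter, and in fru-RNAi VDRC105005 against FruCOMB OE from 4 to 2 with library size alone. These counts also moved when single replicates were left out. In fru-RNAi VDRC330035 against control, Inx5 then ran from -0.95 to -0.58 and shakB from -0.20 to -0.11. The Inx7 log2 fold change in fru-RNAi VDRC330035 was -3.55 with library size alone, -3.74 with at least 10 counts in every library, -2.78 and -3.63 in limma with 1 and 0.1 added, and -3.66 as the ratio of deposited TPM. It was -2.02 (limma plus 1) and -2.64 (TPM ratio) in fru-RNAi BDSC#31593, -2.22 (limma plus 1) in fru-RNAi VDRC105005, and -2.58 (library size), -2.12 and -2.55 (limma plus 1 and 0.1) in FruCOMB OE. Leave-one-out ranges were -2.64 to -2.27 in fru-RNAi BDSC#31593 and -2.88 to -2.60 in FruCOMB OE. Counts of the junction lists stayed within 1.5 times throughout. Of the other member differences, 655 results over all alternatives kept their side of the threshold, 24 lost the call and 10 gained one. The 655 kept their direction where called, but uncalled ones among them could change sign. With one replicate left out, Inx5 in fru-RNAi VDRC105005 against control ran from -0.32 to 0.22. The cause of these changes was not tested.

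The labels do not say that a replicate number marks a shared day or batch, and 2 numbers per genotype are too few to show it, so the libraries were not treated as paired. The correlation of the deviations of same-numbered libraries was between -0.02 and 0.48, highest for fru-RNAi BDSC#31593 and VDRC105005, whose second libraries both held more gut markers. A replicate block raised the genes called between these lines from 4186 to 4725. With replicate number as a block, zpg in fru-RNAi VDRC330035 against BDSC#31593 (-1.43) was no longer called and Inx5 in fru-RNAi VDRC330035 against VDRC105005 (-0.74) was. The count against control stayed at 5, 3, 4 and 4. Beside it, 7335 of 11729, 5722 of 11464, 6091 of 11472 and 7645 of 11601 genes were called with the block. Inx5, Inx6 and zpg are limited by depth, at 48 counts or fewer per library.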
